A study of Rattus norvegicus with 3 samples.

Results

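The genes described here encode the mTOR complexes with their nearest regulators and targets. They are the kinase Mtor, its partners Rptor, Rictor and Mlst8, the upstream regulators Tsc1, Tsc2, Rheb and Akt1, and the downstream targets Rps6kb1 and Eif4ebp1. The 10 listed genes were found on the array through the RefSeq accession of each probe. A probe was found for 9 of them, 10 probes of 30367 in all, which took 37 of the 42877 spots on each array. Rictor, which defines the second complex, matched no probe. Of the 9 genes with a probe, 7 passed the filter on dim probes and were tested among 14188 genes, of which 8917 had a gene symbol and the rest are counted by the identifier the array gives them.

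Kidney RNA was taken from a region labelled as non-tumor tissue of male Sprague-Dawley rats. The labels give an age of 5 weeks. According to the paper, the rats had that age when purchased, before acclimation and weeks of GABA treatment. The kidneys thus came from older rats than the label reads. The G200 group drank water with 200 ppm gamma-aminobutyric acid (GABA), and the negative control drank water without it. Each of the 3 Agilent arrays carried control RNA in Cy3 (green) and G200 RNA in Cy5 (red), so the comparison asks which transcripts GABA in the water changed in the kidney. The dyes were exchanged on no array, and a difference between the dyes cannot be told apart from the effect of GABA.

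The mTOR kinase is the catalytic core of a pair of protein complexes that couple growth to the supply of nutrients and growth factors. mTORC1, held together by raptor, promotes protein synthesis and restrains autophagy, and mTORC2, built around rictor, phosphorylates Akt and related kinases. In the kidney, the pathway is known for its role in the growth of tubules and in the upkeep of podocytes, and loss of the tuberous sclerosis genes leads to renal cysts and angiomyolipomas.

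Values are given as the log2 ratio of G200 over control on each array, after loess normalization of the dyes, and as normalized intensity in arbitrary units. A gene was called changed at an adjusted p under 0.05 in limma's test of the mean ratio against 0, adjusted over all genes. Between pairs of arrays, the mean squared difference of the control channels was 0.737 to 1.15 times the squared error of their spot means, so the control was counted as 1 sample, and the test leaves out the control's own spread. For the G200 channels it was 11.9 to 17.9 times the squared error. These ratios rest on probes with replicate spots, and for some other genes the control of array 1 stood apart, as for Lamtor5 (230, 392 and 411), Rps6kb2 (483, 690 and 679) and the liver gene Alb (22254, 54747 and 62439). The labels number a rat for each array but do not say whether control RNA was pooled, and the p-values measure only the spread between the arrays. The 3 arrays limit the precision of every mean.

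By limma, 0 of the 7 tested members were higher in G200 at this threshold, where 11.5% of all genes tested were. Tsc2 and Rps6kb1 were lower (2 of 7), where 26% of all genes tested were, and 37.5% of all genes passed in either direction. The share of lower calls among the members thus lay near that of the whole array. At an unadjusted p under 0.05 limma called 0 members higher and 2 lower, where 6961 of 14188 genes passed. Per-gene tests that pool no variance called 0 members in either direction after adjustment, where 2 genes passed on the ratios and 360 on the channels. Unadjusted, they called 2 members on the ratios and 1 on the channels, where 4472 and 4208 of all genes passed. The test on the channels took the control of each array as a separate sample and left out the pairing. In bulk kidney RNA, fewer cells of a type cannot be told apart from less RNA per cell. The median log2 ratio of the 7 was -0.19, beside -0.05 over all genes, and the medians on arrays 1, 2 and 3 were -0.11, -0.11 and -0.11.

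These directions rested on how the dyes were scaled. When the arrays were only centred on their medians (median centring), the all-gene median log2 ratio of -0.05 became 0.27, and with no dye normalization it became 0.62. The members' median was then 0.21 and 0.56, which lay -0.06 from the all-gene median in both cases, compared with -0.14 after loess. The split of calls over the whole array moved with it, from 30.6% higher with loess to 79.6% with median centring and 96.3% without normalization. For the members, the mean is therefore also given relative to the all-gene median. Median centring only shifts each array by a constant, so this value is by construction the same with it and without dye normalization. Their match is not a further check.

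**Figure D1:**
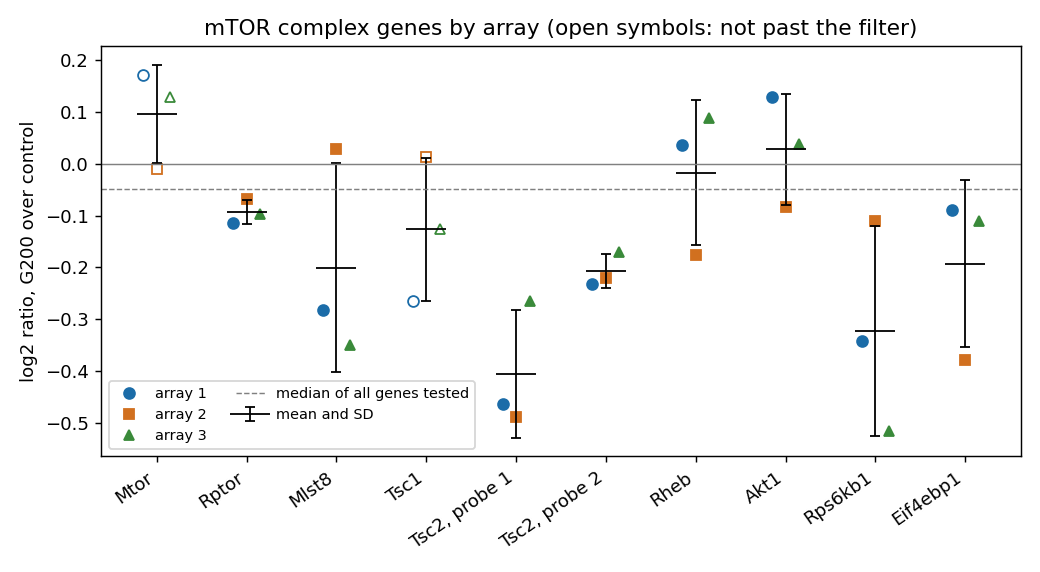
The log2 ratio of G200 over control (y axis) on each of the 3 arrays for every probe of the 9 members found (x axis), with the mean and SD. Both Tsc2 probes and Rps6kb1 lie below 0 on all arrays with loess, but the Tsc2 and Rps6kb1 means turn positive (0.21 and 0.11) with median centring.

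Raptor, the scaffold that brings substrates to mTORC1, is encoded by Rptor and was read by 10 spots on each array, all well above background in both colours. Its level in the control was 580, 643 and 627, and in G200 536, 613 and 587. Every G200 value lay below the control value of its own array, but the groups overlapped. The log2 ratios were -0.11, -0.07 and -0.10, and the SD among the spots of an array was 0.08, 0.06 and 0.05. The mean of -0.09 ± 0.02 (SD, n = 3 arrays) did not pass limma's test (adjusted p = 0.284) and lay -0.04 from the median of all genes. With median centring the mean was 0.54 (adjusted p = 0.0302) and without dye normalization 0.90 (adjusted p = 0.0110), 0.28 relative to all genes in both, so the direction of Rptor was set by the scaling.

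Mlst8, the small WD-repeat subunit shared by both complexes, had 1 spot per array. The control level was 174, 180 and 184, and the G200 level 144, 183 and 145. G200 was lower on arrays 1 and 3 and about level with the control on array 2. The log2 ratios of -0.28, 0.03 and -0.35 gave a mean of -0.20 ± 0.20, which did not pass the test (adjusted p = 0.130; -0.15 relative to all genes). Without array 2 the mean was -0.32 and passed as lower (adjusted p = 0.0350). With median centring it was 0.18 (adjusted p = 0.241), and without dye normalization 0.54, which passed as higher (adjusted p = 0.0441), -0.08 relative to all genes in both.

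Mtor itself, the kinase of both complexes, was read by 10 spots per array but did not pass the filter. In the control none of its 30 spots over the 3 arrays was well above background, and in G200 9 of 30 were, 8 on array 1, 0 on array 2 and 1 on array 3. Over all spots, G200 had more of these than the control on array 1 (27008 against 25657) and fewer on arrays 2 and 3. The normalized level of Mtor was 66.7, 68.8 and 66.4 in the control and 75.1, 68.3 and 72.6 in G200, which gave log2 ratios of 0.17, -0.01 and 0.13. The SD among the spots of an array was 0.08, 0.12 and 0.13. The ratios of Mtor are not read as a fold change, and Mtor was tested only in the alternative without this filter.

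**Figure D2:**
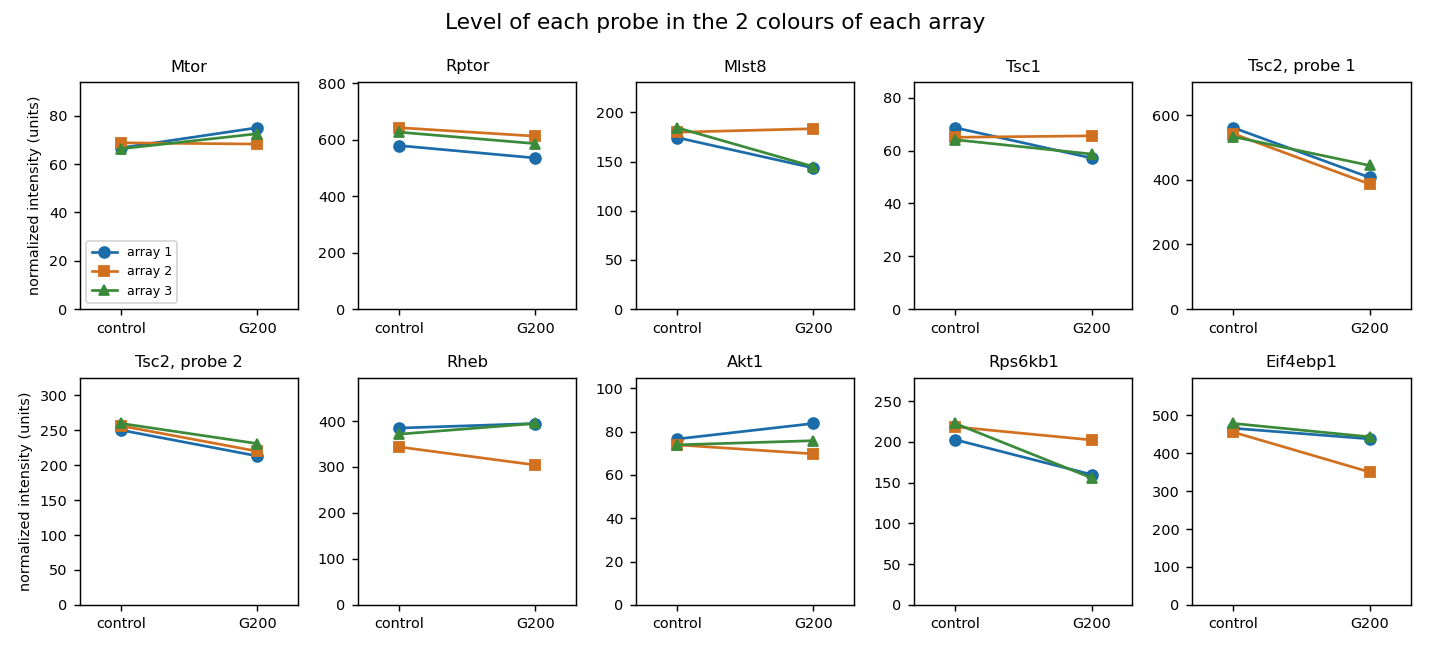
Normalized intensity (y axis, arbitrary units, each panel with its own scale from 0) of each probe in the control and G200 channels, with 1 line per array after loess. The Tsc2 lines descend on all arrays, and the Mtor, Tsc1 and Akt1 panels sit at or near background; levels are not compared between panels.

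The tuberous sclerosis complex restrains mTORC1 by switching off the GTPase Rheb. Tsc2, its GTPase-activating subunit, had a pair of probes that both passed the filter. The brighter probe read 562, 543 and 534 in the control and 407, 387 and 445 in G200. After scaling, every G200 value lay below every control value. How many of all genes separate in this way was not counted, and the control counts as a single sample. The log2 ratios were -0.46, -0.49 and -0.26, and the mean of -0.40 ± 0.12 passed limma's test (adjusted p = 0.00971, lower on 3 of 3 arrays, -0.36 relative to all genes), but it was 0.21 with median centring (adjusted p = 0.312) and 0.56 without dye normalization (adjusted p = 0.0609), -0.06 relative to all genes in both. The second probe read 250, 256 and 260 in the control and 213, 220 and 231 in G200. Its ratios of -0.23, -0.22 and -0.17 had the same sign but a smaller mean (-0.21 ± 0.03), and with that probe standing for the gene the adjusted p was 0.0471. Leaving out each array in turn kept the mean of the brighter probe between -0.48 and -0.36, with an adjusted p of at most 0.0436. By the per-gene tests that pool no variance, adjusted over all genes, Tsc2 did not pass.

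Tsc1, the subunit that stabilises Tsc2, was not well above background on any array in either colour. Its single spot gave ratios of -0.26, 0.01 and -0.13, which are not read as a fold change. Mlst8 and Tsc2 are on 1 chromosome in the RefSeq table of GRCr8, with 8 entries between them. Of these, Traf7 (0.04, adjusted p = 0.712) and Rab26 (-0.15, adjusted p = 0.126) were tested, and neither passed.

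Rheb, the GTPase that activates mTORC1 at the lysosome, read 385, 344 and 371 in the control and 395, 304 and 395 in G200. Its ratios of 0.04, -0.18 and 0.09 had both signs. The mean of -0.02 ± 0.14 (adjusted p = 0.876; 0.03 relative to all genes) became 0.06 without array 2. It passed as higher with median centring (0.56, adjusted p = 0.0474) and without dye normalization (0.92, adjusted p = 0.0137), 0.30 relative to all genes in both. Akt1, the kinase that inhibits the tuberous sclerosis complex and is itself a target of mTORC2, lay near background. Of its 30 spots over the arrays, 17 were well above background in the control and 18 in G200, with 0 of 10 on G200 array 2, and it passed the filter only because spots with an outlier mark were left out. The levels were 76.6, 73.9 and 73.9 in the control and 83.7, 69.7 and 75.8 in G200. The ratios of 0.13, -0.08 and 0.04 gave a mean of 0.03 ± 0.11 (adjusted p = 0.782; 0.08 relative to all genes), which was -0.02 without array 1 and -0.04 with median centring. Relative to all genes it was -0.31 with median centring and without dye normalization.

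Rps6kb1 encodes the kinase that mTORC1 activates to phosphorylate ribosomal protein S6. The control level was 203, 219 and 223, and the G200 level 160, 202 and 156. Arrays 1 and 3 differed most. After scaling, all G200 values lay below the control values, with that of array 2 just under the lowest control value. The share of all genes that separate so was again not counted. The ratios of -0.34, -0.11 and -0.51 gave a mean of -0.32 ± 0.20 that passed limma's test (adjusted p = 0.0369, lower on 3 of 3 arrays, -0.27 relative to all genes), but it was 0.11 with median centring and 0.46 without dye normalization, -0.16 relative to all genes in both. The call was lost without array 1 (adjusted p = 0.0799) and without array 3 (adjusted p = 0.224), without the pairing of the channels (adjusted p = 0.0690) and by the per-gene tests that pool no variance. It was also lost with the deposited log ratio (-0.40, adjusted p = 0.0683), with normexp at an offset of 0 (-0.44, adjusted p = 0.0550) and with plain background subtraction (-0.43, adjusted p = 0.0567). The means in these last settings lay farther from 0 than the main value.

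Eif4ebp1 encodes the repressor of cap-dependent translation that mTORC1 releases from eIF4E. It read 466, 456 and 479 in the control and 438, 351 and 443 in G200. After scaling, all G200 values lay below the control values, and array 2 stood apart with the lowest. The ratios of -0.09, -0.38 and -0.11 gave a mean of -0.19 ± 0.16, which did not pass (adjusted p = 0.111; -0.14 relative to all genes). Without array 2 the mean was -0.10. It was 0.41 with median centring (adjusted p = 0.121) and 0.76 without dye normalization, where it passed as higher (adjusted p = 0.0289), 0.14 relative to all genes in both.

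Promoter sequences from RefSeq (GRCr8) were found for 8 of the 10 members, and those of the members that passed the test, Tsc2 and Rps6kb1, are shown as the stretch of 250 bases before the gene's start. Tsc2 is at chr10:14160240-14160489 and Rps6kb1 at chr10:71865212-71865461, both read from the minus strand, 5′ to 3′. Capitals mark the motifs searched on both strands, the GC box GGGCGG and the E-box CACGTG, which do not overlap.
Tsc2: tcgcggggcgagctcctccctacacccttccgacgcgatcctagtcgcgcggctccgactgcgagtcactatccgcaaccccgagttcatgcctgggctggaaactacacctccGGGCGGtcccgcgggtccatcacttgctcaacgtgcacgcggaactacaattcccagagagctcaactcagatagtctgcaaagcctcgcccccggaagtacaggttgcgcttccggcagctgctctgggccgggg
Rps6kb1: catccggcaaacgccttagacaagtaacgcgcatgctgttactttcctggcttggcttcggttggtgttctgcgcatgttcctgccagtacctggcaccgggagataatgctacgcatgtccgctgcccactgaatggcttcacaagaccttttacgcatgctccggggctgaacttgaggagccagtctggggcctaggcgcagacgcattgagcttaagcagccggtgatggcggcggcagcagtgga
The Tsc2 stretch holds 1 GC box and the Rps6kb1 stretch 0, and neither holds the E-box. Over 33469 promoter stretches of the same length, 30.5% held a GC box and 5.59% an E-box.

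**Figure D3:**
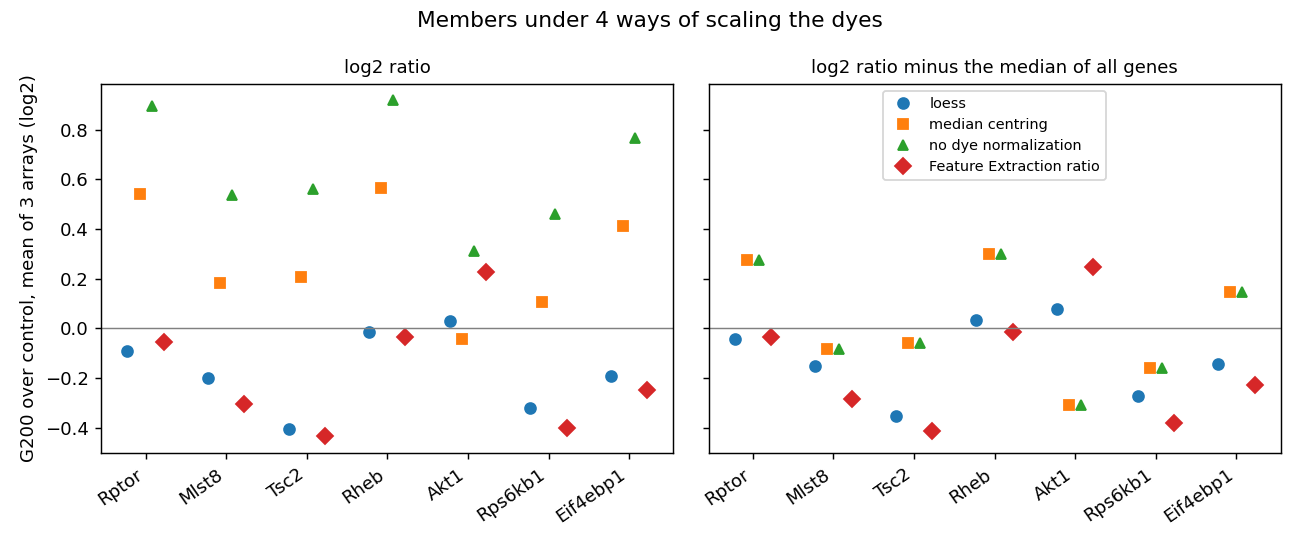
Mean log2 ratio of the 7 tested members (y axis) under 4 ways of scaling the dyes, as measured (left) and relative to the median of all genes (right). Tsc2 and Rps6kb1 lie above 0 at left with median centring (0.21 and 0.11) and without dye normalization (0.56 and 0.46), and below 0 at right under all 4. At right, median centring and no dye normalization give the same values by construction.

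The other genes of the pathway were read from 8 lists. Of 117 listed genes, 99 matched a probe and 79 were tested; 14 were higher (17.7%) and 20 lower (25.3%), with a median of -0.04. Over all genes the shares were 11.5% and 26%.

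Among the other subunits and assembly factors of the complexes, 5 of 8 were tested, 0 were higher and 1 was lower, with a median of -0.04. Akt1s1, the mTORC1 inhibitor PRAS40, had ratios of -0.25, -0.34 and -0.30 (mean -0.30 ± 0.04, adjusted p = 0.0157), but the mean was -0.22 with median centring and 0.13 without dye normalization. Relative to all genes, Akt1s1 was at -0.25 with loess and at -0.49 under both other scalings. Tti1 and Tti2, which help to assemble the kinase, had means of -0.20 (adjusted p = 0.0549; 0.39 with median centring and 0.75 without dye normalization) and 0.16 (adjusted p = 0.135). The mTORC2 subunits Mapkap1 and Prr5 stood at -0.04 and 0.08 and did not pass, and Mapkap1 was positive at 0.19 with median centring and at 0.54 without dye normalization. Deptor and Telo2 matched no probe, and Prr5l did not pass the filter.

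Of the insulin and growth factor genes, 8 of 16 were tested, 0 were higher and 2 lower (median -0.13). Irs2, an adaptor of the insulin receptor, had ratios of -0.18, -0.42 and -0.32 and a mean of -0.31 (adjusted p = 0.0220), against 0.00155 with median centring and 0.36 without dye normalization. Relative to all genes, Irs2 was at -0.26 with loess and also under the other scalings.

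Of the energy and stress genes, 11 of 15 were tested, and 3 were higher and 2 lower (median 0.12). Prkaa2, a catalytic alpha subunit of AMPK, was at 0.49, 0.24 and 0.37 (mean 0.37 ± 0.13, adjusted p = 0.0135). The other alpha subunit, Prkaa1, had a mean of 0.12 and did not pass (adjusted p = 0.197). Stradb (0.30) and Cab39 (0.21, adjusted p = 0.0440), partners of the kinase Stk11, passed. Prkaa2, Stradb and Cab39 were positive under each scaling tried. The other scalings raised the all-gene median, and relative to it Prkaa2, Stradb and Cab39 were at 0.40, 0.25 and 0.64 under both. Stk11 itself, also called LKB1, had a mean of -0.44 (adjusted p = 0.0220; -0.29 with median centring, 0.066 without dye normalization), and Sesn3, a stress-induced inhibitor of mTORC1, a mean of -0.47 (adjusted p = 0.00597; 0.082 and 0.44 under the same scalings). Relative to all genes, Stk11 went from -0.39 with loess to -0.55 under both other scalings, and Sesn3 from -0.42 to -0.18.

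At the lysosome, where amino acids are sensed through the Rag GTPases, 18 of 28 genes were tested, and 5 were higher and 3 lower (median -0.04). Lamtor5, a subunit of the Ragulator scaffold, was highest at 1.10, 0.77 and 0.69 (mean 0.85 ± 0.22, adjusted p = 0.00212). Sec13 (0.51), a shared subunit of the GATOR2 complex, and Lamtor1 (0.38), which anchors Ragulator, were also higher, and these 3 stayed positive under each scaling. Under both other scalings, Lamtor5, Sec13 and Lamtor1 were at 1.18, 0.73 and 0.32 relative to all genes. Fnip2, a partner of folliculin, was lowest at -1.06, -0.89 and -1.19 (mean -1.05 ± 0.15, adjusted p = 0.000957), and stayed negative at -0.71 with median centring and -0.35 without dye normalization. Folliculin itself (Flcn) had a mean of -0.36 (0.29 and 0.65 under those scalings), and Lamtor2 a mean of -0.33. With its second probe the mean of Lamtor2 was -0.11 and the call was lost (adjusted p = 0.226), and it passed as higher with median centring (0.46, adjusted p = 0.0421) and without dye normalization (0.82, adjusted p = 0.0143).

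Of the translation genes, 11 of 13 were tested, and 3 were higher and 4 lower (median -0.02). Rps6kb2, the paralog of Rps6kb1, was at -1.002, -0.80 and -1.09 (mean -0.96 ± 0.15, adjusted p = 0.00106), with -0.37 under median centring and -0.015 without dye normalization. Eif4a1, an RNA helicase, and Eif4ebp2, a paralog of Eif4ebp1, had means of -0.39 and -0.28, which were 0.26 and 0.21 with median centring and 0.62 and 0.57 without dye normalization. Ppp2ca (0.33), Rps6 (0.28) and Eif4e (0.27), the last being the cap-binding protein that Eif4ebp1 restrains, were higher and positive under each scaling. Their values relative to all genes were 0.67, 0.83 and 0.29 under both other scalings. With the second probe of the gene, the calls of Eif4a1 (-0.10, adjusted p = 0.286) and Eif4e (0.093, adjusted p = 0.393) were lost, and each of these probes had a ratio of the other sign on 1 array. With the mean over its probes Eif4e also lost the call (adjusted p = 0.0851).

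Of the autophagy and lysosome genes, 8 of 10 were tested, 0 were higher and 3 lower (median -0.20). The median was 0.38 with median centring and 0.73 without dye normalization, and relative to all genes it turned from -0.15 to 0.11. Tfeb, the transcription factor held in the cytoplasm by mTORC1, had ratios of -0.19, -0.32 and -0.37 (mean -0.29, adjusted p = 0.0210; -0.28 with median centring, 0.075 without dye normalization). Its value relative to all genes was -0.24 with loess and -0.54 under both other scalings. Uvrag (-0.28) and the kinase Ulk1 (-0.22), which starts autophagy, passed with loess but were positive at 0.037 and 0.44 with median centring and at 0.39 and 0.79 without dye normalization. Ulk1 passed as higher under both of these scalings (adjusted p = 0.0483 and 0.0158).

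Of the substrates of mTORC2 and Akt, 7 of 13 were tested, 3 were higher and 0 lower (median 0.13), and the median was 0.72 and 1.07 under the other scalings. Ndrg1, whose phosphorylation is used as a readout of Sgk1, was at 1.14, 0.40 and 0.57 (mean 0.71 ± 0.39, adjusted p = 0.0125). Sgk1, an mTORC2-activated kinase of sodium transport, had ratios of 0.42, 0.59 and 0.05 (mean 0.35, adjusted p = 0.0479), and Bad a mean of 0.28. Of the transcription factors and metabolic targets of mTORC1, 11 of 14 were tested, 0 were higher and 5 lower (median -0.14). Atf4, which drives amino acid synthesis genes, was at -1.21, -0.75 and -0.96 (mean -0.97 ± 0.23, adjusted p = 0.00155; -0.25 with median centring, 0.11 without dye normalization). Crtc2, a coactivator of CREB, and Phgdh, the first enzyme of serine synthesis, had means of -0.33 and -0.31, which were -0.00787 and 0.35 with median centring, and 0.35 and 0.71 without dye normalization.

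The calls depended on which array was left out. Without array 3, 1583 of all genes passed, and of the pathway genes named above only Lamtor5, Fnip2, Rps6kb2, Sgk1 and Atf4 still did. Without array 1, 3542 of all genes passed, and Cab39, Stk11, Lamtor1, Lamtor2, Eif4ebp2, Rps6, Eif4e, Uvrag, Ulk1, Sgk1, Bad and Crtc2 lost the call. Without array 2, 4978 of all genes passed, and Irs2, Cab39, Lamtor1, Eif4ebp2, Ppp2ca, Tfeb, Ulk1, Sgk1 and Phgdh lost it. Relative to the median of all genes, the sign reversed between loess and the other scalings for Flcn (-0.31 to 0.029), Lamtor2 (-0.28 to 0.20), Ulk1 (-0.17 to 0.17) and Phgdh (-0.26 to 0.088). It also reversed for Tti1 (-0.15 to 0.13), Mapkap1 (0.0091 to -0.078) and Prr5 (0.13 to -0.020), which did not pass with loess. The size of some changes was larger with the deposited ratio, which differs in both background correction and dye normalization, as for Akt1s1 (-0.88), Stk11 (-0.98), Prkaa2 (0.82), Stradb (0.73), Eif4e (0.73) and Lamtor1 (1.04). With only the normexp offset set to 0 these means were -0.67, -0.84, 0.64, 0.59, 0.48 and 0.79. Tfeb (-0.62), Crtc2 (-0.54), Cab39 (0.36), Bad (0.46) and Ndrg1 (1.11) were also farther from 0 with the deposited ratio, and Irs2 (-0.53), Fnip2 (-1.59), Tfeb (-0.71), Uvrag (-0.43), Crtc2 (-0.51) and Bad (0.43) with that offset.

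**Figure D4:**
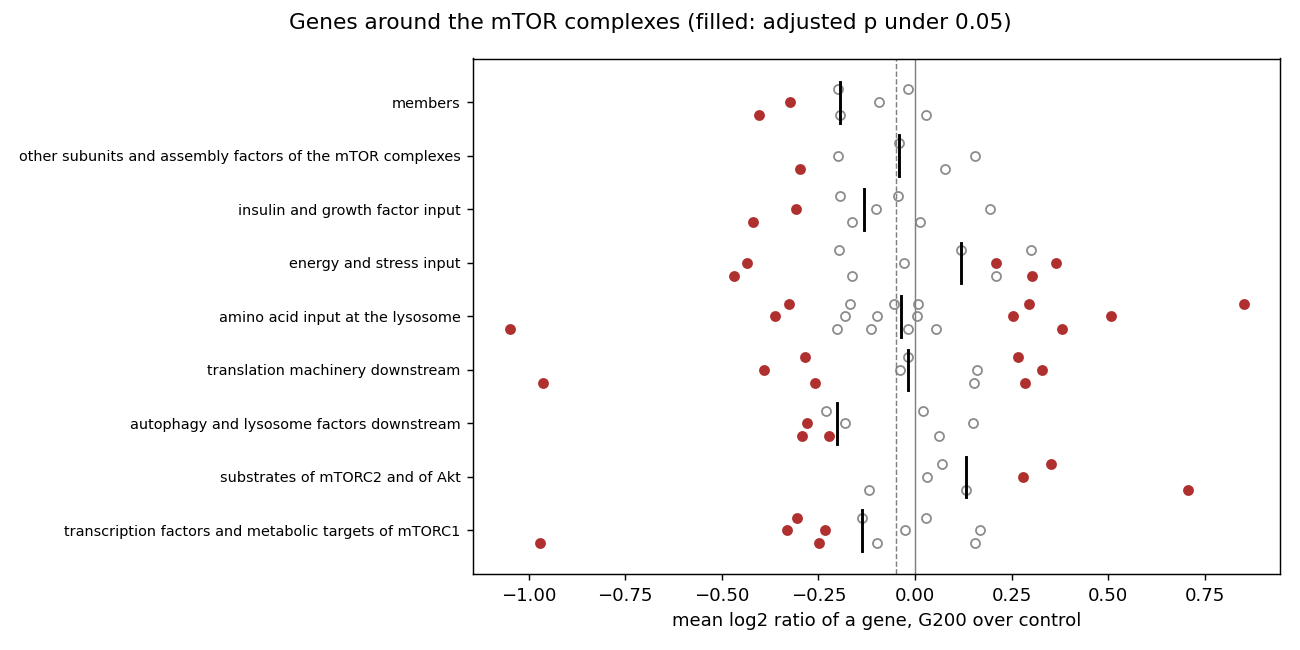
Mean log2 ratio of each tested gene (x axis) in the members and the 8 pathway lists (y axis), after loess; filled points passed an adjusted p under 0.05, bars mark the list medians, and the dashed line marks the median of all genes. Lamtor5 (0.85) and Ndrg1 (0.71) lie farthest right and keep their sign under the other scalings, also relative to the median of all genes. Fnip2 (-1.05), Atf4 (-0.97) and Rps6kb2 (-0.96) lie farthest left. Of these, Atf4 turns positive (0.11) without dye normalization but lies at -0.51 relative to the median of all genes.

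Markers of other tissues moved on the same arrays after loess, and they were not read under the other scalings. Of all genes tested, 11.5% were called higher and 26% lower. All 12 tested liver genes were lower in G200 (median -3.06; -1.69, -3.17 and -4.50 on arrays 1, 2 and 3), with a summed level of 187185, 216463 and 225892 in the control and 54092, 21747 and 8379 in G200. Ttr had the highest mean log2 intensity among them in the control, though not on every array, and intensities of different probes do not rank abundance. Cps1 was not well above background on any array. The 3 tested adrenal genes were lower by a smaller ratio (median -0.42, summed level 402, 381 and 416 against 286, 309 and 313). Among them, Pnmt lay near background and was well above it on 2 of the 3 G200 arrays. Cyp11b1, Cyp11b2, Dbh and Star were not well above background on any array, and Cyp11a1 was on 1 G200 array only. Markers of kidney cells were present. Of 9, 6, 7 and 5 tested genes in the proximal tubule, thick ascending limb and distal tubule, collecting duct and podocyte lists, 3, 3, 0 and 1 were higher and 1, 0, 1 and 0 lower. In the endothelial, stromal, macrophage and lymphocyte, and adipose lists, 0, 2, 1 and 0 genes were higher and 1, 0, 0 and 1 lower. Tek, Cd3e, Cd4 and Lep were not well above background on any array, Slc5a12 and Calb1 did not pass the filter, and Ms4a1 and Plin1 matched no probe. The part of these markers in the values of the mTOR genes was not tested.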

How the data were processed

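The authors scanned the arrays and read them with Agilent Feature Extraction (version 9.3.2.1 per the labels, 11.5.1.1 per the file headers). The deposited files give, for every spot, a median intensity and a local background in each colour. They also give a log10 ratio of G200 over control made by the authors, which served as an alternative. The members and gene lists were chosen with earlier results of these data known.

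Background correction used normexp (offset 50) and dye normalization used loess on each array, from limma 3.58.1 under R 4.3.3. Levels of single channels were scaled by Aquantile. Control spots (1224 positive, 153 negative) and outlier spots (635, 736 and 945) were left out, and replicate spots were averaged. In the control channel 25657, 26864 and 26723 spots stood well above background on arrays 1, 2 and 3, and in the G200 channel 27008, 24260 and 26151, with 0 saturated. Of 30367 probes, 18355 (60.4%) were matched by accession to RefSeq (GRCr8). The filter on dim probes asked for a signal well above background in 1 colour on every array, and 15656 probes passed. For a probe with several spots, a share of at least 0.5 of its kept spots had to be well above background. That share was set after the marks, intensities and deposited ratios of the member probes had been seen, and it decides whether Akt1 is tested.

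The brightest probe stood for its gene. The mean log2 ratio was tested against 0 by lmFit and eBayes in limma (two-sided), and p-values were adjusted by the Benjamini-Hochberg method across the 14188 genes, of which 5321 passed, and 6961 unadjusted. Control and G200 were paired by array. Ratios of arrays 1 and 2, 1 and 3, and 2 and 3 correlated across genes at 0.778, 0.827 and 0.904, and genes are not independent replicates. Named were all members, every gene of the list of subunits, and in each other pathway list up to 3 largest rises and falls past the threshold with 1 sign on all arrays. Not every gene that this rule names is described. Alternatives covered dye normalization, background, filter, probe, test and each array left out. The motifs were chosen after the promoter sequences had been seen.

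The test was tried on simulated ratios with known changes. With each gene's own SD over the arrays as the spread, it fell short of the recovery limit that had been set, and it recovered fewer still of the smaller changes. The spread was then changed to limma's moderated variance, after that failure was known, and the limit was met.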

Additional observations from a re-analysis of the deposited data

Results flagged for a closer look

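Mtor did not enter the comparison because its probe failed the filter on dim probes. Its spots were nevertheless well above background more often in G200 than in the control, 9 of 30 against 0 of 30 over the 3 arrays, and 8 of the 9 lay on array 1. This difference between the colours was not tested, and it cannot be told apart from a difference between the dyes. Over all spots, G200 also had more well above background than the control on array 1 (27008 against 25657). It had fewer on array 2 (24260 against 26864) and array 3 (26151 against 26723). Before normalization, the net intensity of Mtor on arrays 1, 2 and 3 was 25, 11.1 and 17.5 in G200 and 20.1, 22.9 and 19.6 in the control.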

How the results depend on the processing

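The values below are those of the settings that moved a count, a median or a sign, with pathway genes that lost their call, not all of which are named; the cause was not tested. Lists are given in the order subunits, insulin, energy, amino acids, translation, autophagy, substrates of mTORC2 and Akt, targets of mTORC1.

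With median centring, 2 of 7 members were higher and 0 lower, where 4956 of 14188 genes were higher and 1269 lower, the members' median was 0.21 and the list medians 0.25, 0.22, 0.33, 0.43, 0.49, 0.38, 0.72 and 0.16. The sign reversed for Rptor (0.54), Mlst8 (0.18), Tsc2 (0.21), Rheb (0.56), Akt1 (-0.042), Rps6kb1 (0.11), Eif4ebp1 (0.41), Irs2 (0.00155), Sesn3 (0.082), Flcn (0.29), Lamtor2 (0.46), Eif4a1 (0.26), Eif4ebp2 (0.21), Uvrag (0.037), Ulk1 (0.44), Phgdh (0.35), Mapkap1 (0.19) and Tti1 (0.39). Akt1s1, Stk11, Rps6kb2, Tfeb, Atf4 and Crtc2 kept their sign but lost their call, where the all-gene median was 0.27. Relative to that median they were at -0.49, -0.55, -0.63, -0.54, -0.51 and -0.27. With loess these values were -0.25, -0.39, -0.91, -0.24, -0.92 and -0.28.

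With no dye normalization, 8315 genes passed (8011 higher, 304 lower), 4 members were higher and 0 lower, the members' median was 0.56 and the list medians 0.60, 0.58, 0.69, 0.78, 0.84, 0.73, 1.07 and 0.51. The sign reversed for Rptor (0.90), Mlst8 (0.54), Tsc2 (0.56), Rheb (0.92), Rps6kb1 (0.46), Eif4ebp1 (0.76), Akt1s1 (0.13), Irs2 (0.36), Sesn3 (0.44), Stk11 (0.066), Flcn (0.65), Lamtor2 (0.82), Eif4a1 (0.62), Eif4ebp2 (0.57), Tfeb (0.075), Uvrag (0.39), Ulk1 (0.79), Atf4 (0.11), Crtc2 (0.35), Phgdh (0.71), Mapkap1 (0.54) and Tti1 (0.75). Fnip2 and Rps6kb2 kept their sign but lost their call, and Prr5 and Tti2 passed as higher. The all-gene median was 0.62 in this setting. Relative to it, Fnip2 and Rps6kb2 were at -0.97 and -0.63, and Prr5 and Tti2 at -0.020 and 0.041.

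With the deposited log ratio, 1 member was lower, where 2148 of 14188 genes were higher and 3178 lower, and the members' median was -0.25, beside an all-gene median of -0.020; the medians of the insulin, energy, amino acid, mTORC2 and Akt, and mTORC1 target lists were -0.25, 0.36, -0.0097, 0.21 and -0.22. Irs2 (adjusted p = 0.0553), Flcn (0.0850), Lamtor2 (0.0970), Rps6 (0.0923), Eif4a1 (0.0587), Eif4ebp2 (0.0942), Uvrag (0.132), Ulk1 (0.336), Sgk1 (0.0808) and Phgdh (0.105) lost their call. With normexp at an offset of 0, 1 member was lower, where 1517 genes were higher and 3467 lower, the members' median was -0.23 beside -0.074 over all genes, and those lists had medians of -0.27, 0.21, -0.070, 0.15 and -0.28, with -0.23 for autophagy. Cab39 (adjusted p = 0.141), Lamtor2 (0.0728), Ppp2ca (0.0528), Rps6 (0.0502), Uvrag (0.0571), Ulk1 (0.113), Sgk1 (0.0625) and Phgdh (0.0818) lost their call. With subtraction of the background, 1 member was lower, where 1528 of 14175 genes were higher and 3499 lower, the members' median was -0.22 beside -0.074 over all genes, and those lists had -0.26, 0.22, -0.067, 0.15 and -0.27, with -0.22 for autophagy, and the same genes apart from Ppp2ca lost their call.

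With no filter on dim probes, 9 members were tested, and 0 were higher and 2 lower, where 1771 of 26785 genes were higher and 3843 lower with a median of -0.0087. Unadjusted, 4 members passed, where 8954 of the 26785 genes did. The median was -0.13 for the members, 0.019 for subunits, 0.066 for energy, -0.044 for insulin, 0.0070 for amino acids, -0.081 for autophagy and 0.069 for substrates of mTORC2 and Akt. With a signal asked for in both colours it was -0.20 for the members, -0.16 for insulin, -0.017 for amino acids and 0.068 for translation, and Uvrag, Ulk1, Sgk1 and Phgdh lost their call. The autophagy median was -0.16 with the dimmest probe of a gene and -0.18 with the mean over its probes. Counting every spot in the filter, an alternative chosen after seeing the data, left out Akt1 and gave a members' median of -0.20.

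A per-gene t-test called 2 genes on the ratios and 360 on the channels after adjustment, with 0 members lower in both, and 29 and 27 pathway genes lost their call. Without the replicate block that pairs the channels of an array, 1029 of 14188 genes were higher and 3070 lower. In that fit 1 member was lower, as Rps6kb1 lost its call (adjusted p = 0.0690). Both that fit and the t-test on the channels took the control of each array as a separate sample. Irs2 (adjusted p = 0.212), Stradb (0.182), Eif4e (0.108), Uvrag (0.0658), Sgk1 (0.0564), Bad (0.172) and Phgdh (0.0726) lost their call without the block. The robust variance model kept the direction and side of the threshold of the members and the pathway genes described.

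Leaving out each array in turn gave 1583 to 4978 genes past the threshold, 1 to 3 members lower, and a members' median of -0.16 to -0.11. List medians ran from -0.060 to -0.041 for amino acids, -0.20 to -0.18 for autophagy, 0.095 to 0.17 for substrates of mTORC2 and Akt, and -0.18 to -0.12 for targets of mTORC1. Akt1 (-0.023 to 0.083) and Mapkap1 (-0.10 to 0.012) reversed without array 1, and Rheb (-0.069 to 0.062) without array 2. Signals near background limit the ratios of Akt1, Mtor and Tsc1.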
